A study of Mus musculus with 62 samples.

Results

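Genes for 10 secreted proteins of the acute phase type were followed in mouse soleus, a muscle of the lower leg made up largely of slow fibres: Hp, Lcn2, Saa1, Saa2, Saa3, Fetub, Vtn, Cp, Apod and Pla2g5. They are 10 of the 47643 genes in the deposited expression table and were matched by gene symbol. The 10 genes were selected on measured values, since they stood high in muscle of mice with a cachectic tumour in these same libraries. Their differences between that group and the others are therefore given as descriptions, and counts of them past a threshold are not read as tests. All 62 libraries came from female mice, 2 months old, labelled as biological replicates. The animals had received cachectic melanoma cells (CAC), which bring on wasting of body tissue, non-cachectic melanoma cells (NCAC), while the controls (Con) were mock injected. Soleus was collected 2, 4, 6 or 8 weeks after the injection, with 5 libraries in each of the 12 groups except 7 for CAC at 8 weeks. The labels conflict on the strain: sample entries name C57BL6/J, the design text names NCI Ath/nude mice, and a protocol sentence mentions LLC cells. The strain, and with it the immune cells the hosts had, is thus not settled here.

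The acute phase response is the shift in plasma proteins that follows injury, infection or a tumour. Cytokines such as interleukin 6, oncostatin M and interleukin 1 act through STAT3, C/EBP and NF-kB factors, chiefly in the liver, and raise proteins such as haptoglobin and the serum amyloids A. Several of these genes are also transcribed outside the liver, in fat, connective tissue and immune cells. The RNA here came from whole muscle, so a lower transcript level can mean fewer cells of a type or less RNA per cell, and these cannot be told apart. The assay does not show which cells of the muscle made a transcript.

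Hp encodes haptoglobin, which binds free haemoglobin. Lcn2 encodes lipocalin 2, which captures bacterial iron carriers. Saa1, Saa2 and Saa3 encode serum amyloids A, small proteins carried on high density lipoprotein. Fetub encodes fetuin B, a protease inhibitor, and Vtn encodes vitronectin, an adhesion protein of plasma and matrix. Cp encodes ceruloplasmin, a copper oxidase that oxidises iron, Apod a lipocalin that carries lipids, and Pla2g5 a secreted phospholipase A2.

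The serum amyloid genes lie together on chromosome 7 (mm10, GENCODE M21), with 42316 bases from the first to the last. Saa1 spans 46740497 to 46742980 and Saa2 46751790 to 46754313, 8809 bases apart. Their transcripts were identical at 572 of 606 aligned bases (94.39%), so reads could be split between them by the counting, and the division between Saa1 and Saa2 is uncertain. The Saa1 and Saa3 transcripts matched at 60.21% of 573 aligned bases, with unaligned bases left out. The longest coding transcript of each gene was used, of 609 bases for Saa1 and 2200 for Saa3. Unrelated sequences were not aligned for comparison. The stretches below lie upstream of the start sites of these 3 genes and are shown because the genes neighbour each other but did not keep the same proportions between libraries. They are RefSeq promoter sequences of build GRCm38.p6, read along the gene's strand, with capitals for a match to the C/EBP motif TTGCNNAA on either strand. The coordinates are chr7:46743129-46743188 on the minus strand for Saa1, chr7:46751624-46751683 on the plus strand for Saa2 and chr7:46715742-46715801 on the minus strand for Saa3.
Saa1: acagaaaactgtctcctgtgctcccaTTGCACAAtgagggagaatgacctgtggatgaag
Saa2: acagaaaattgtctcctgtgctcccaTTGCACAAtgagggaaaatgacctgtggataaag
Saa3: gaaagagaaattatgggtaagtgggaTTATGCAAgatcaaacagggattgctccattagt

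Over windows of 250 bases before to 50 bases after the start, Saa1 and Saa2 were identical at 96.0% of 299 aligned bases, and Saa1 and Saa3 at 61.2% of 273. RefSeq windows were matched for 9 of the 10 genes; Hp had none. These 9 genes had 12 windows. The C/EBP motif was found in 5 of the 12 (1 each of Lcn2, Cp, Saa1, Saa2 and Saa3, those of Saa1 and Saa2 being nearly the same sequence), against 10.8% of all 32851 windows. The STAT motif TTCNNNGAA, which reads the same on both strands, was found in 1 of the 12 (of Vtn, as TTCTGGGAA), against 8.3% of all windows. A match describes letters only, and a window without one says nothing about the factor.

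Libraries from 8 weeks differed from the rest whatever the treatment. On the first principal component (56.9% of the variance) 16 of those 17 lay outside the range of the 45 from weeks 2 to 6, and NCAC replicate 2 was the exception. Results at 8 weeks are therefore also given from a fit of that week alone. Values are TPM, transcript shares adjusted for gene length that add to 1000000 in each library, so read depth is unknown and no detection limit is given. Differences are of mean log2(TPM + 1), which understates the change of genes near 1 TPM, with a standard error (SE) from limma. A gene passed a comparison at an adjusted p under 0.05 over 13529 tested genes. All 10 genes were among those tested, but Saa2 and Fetub reached the filter of 1 TPM in 5 libraries only through CAC libraries.

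**Figure D1:**
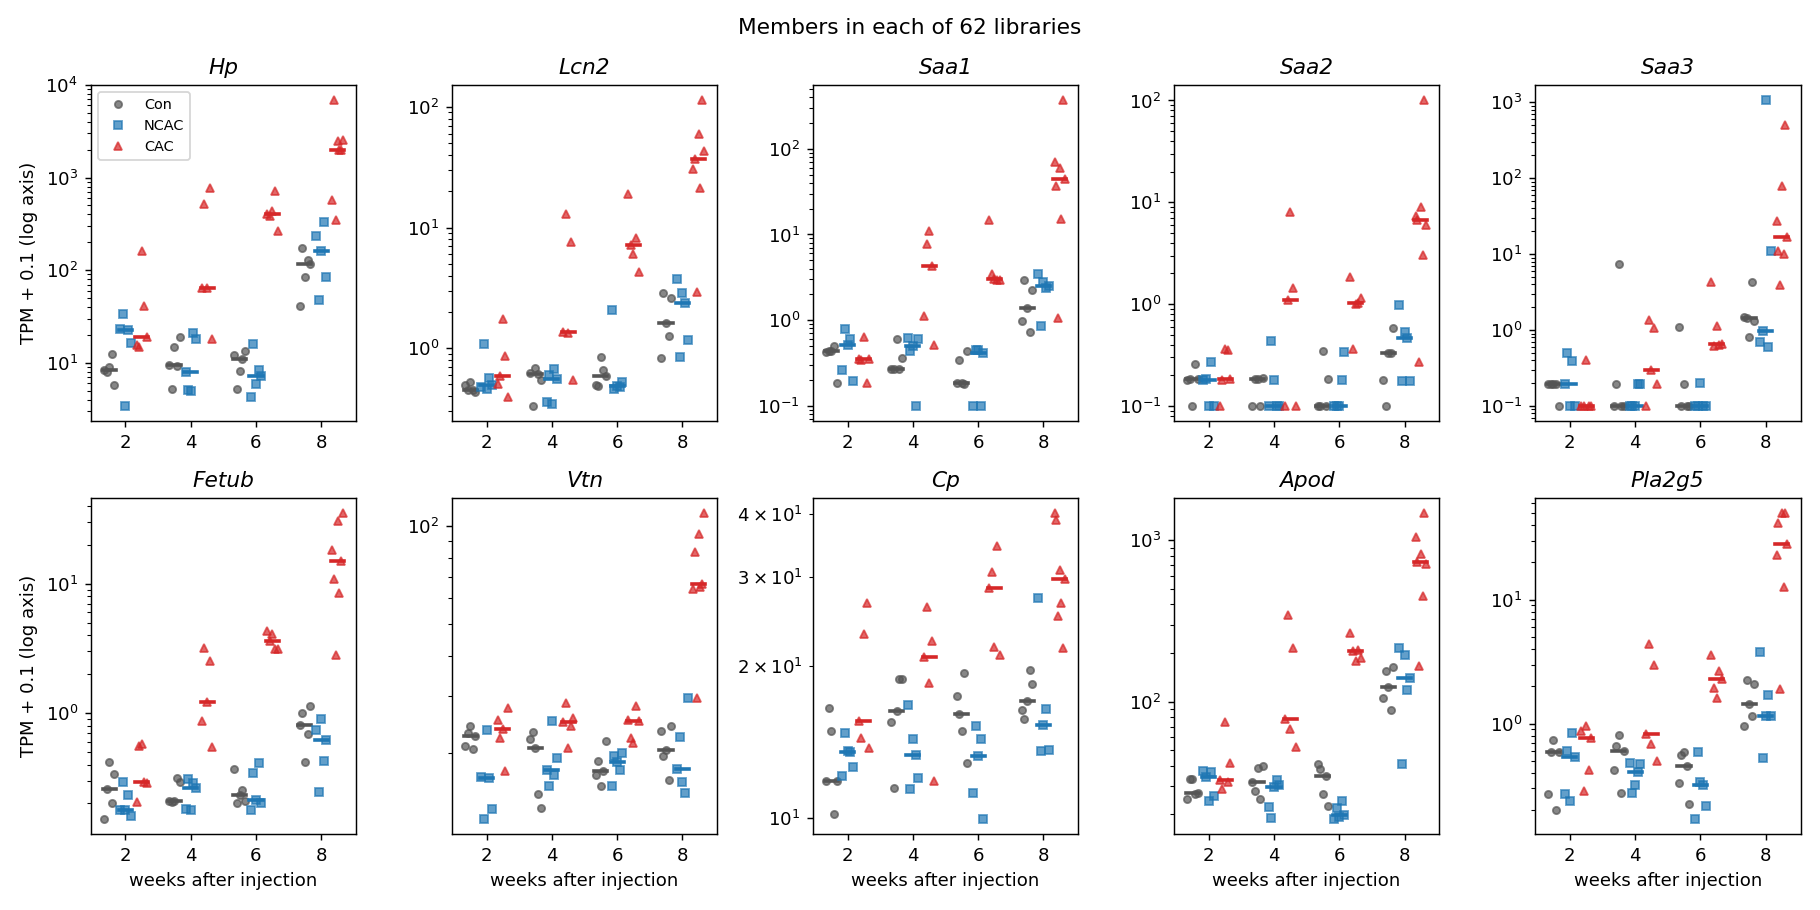
Level of each of the 10 genes in every library (TPM + 0.1, log axis) by week, with circles for Con, squares for NCAC, triangles for CAC and a bar at the group median. The CAC triangles of Hp at 6 weeks lie between 264 and 724 TPM, above all Con and NCAC points of that week, and Con and NCAC points of Hp and Apod are higher at 8 weeks than at 6.

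Haptoglobin reached the highest level of the set. At 2 weeks Hp stood at 15.3, 14.6, 161, 41.0 and 18.7 TPM in CAC and at 5.66 to 12.5 TPM in Con. All 5 CAC libraries lay above the Con libraries, but NCAC reached 33.4 TPM and only 2 CAC libraries lay above that. At 4 weeks the CAC libraries held 64.4, 517, 64.8, 768 and 17.9 TPM of Hp, against 5.18 to 18.8 TPM in Con and 4.88 to 21.1 TPM in NCAC. Replicates 2 and 4 were far above the other 3, and replicate 5 lay within the range of the controls.

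At 6 weeks Hp varied less within CAC than at 4 or 8 weeks, at 399, 385, 436, 724 and 264 TPM. It stood at 5.15 to 13.3 TPM in Con and 4.18 to 16.0 TPM in NCAC. The lowest CAC library thus stood far above the highest of the other 10. At 8 weeks the CAC libraries ran from 349 to 6841 TPM with a median of 1991 TPM, against 41.0 to 173 TPM in Con and 47.6 to 334 TPM in NCAC. The groups did not overlap, although replicate 3 of CAC lay just above the highest NCAC library. The log2 differences of CAC from Con were 1.77 ± 0.69, 3.46 ± 0.69, 5.33 ± 0.69 and 4.06 ± 0.64 (SE) at 2, 4, 6 and 8 weeks.

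Apod was also well expressed in mock-injected muscle. It stood at 77.9, 346, 67.3, 216 and 52.6 TPM in CAC at 4 weeks, against 24.8 to 39.6 TPM in Con and 18.9 to 32.6 TPM in NCAC. Every CAC library was above every other library of that week, and replicates 2 and 4 were again highest. At 6 weeks the CAC libraries held 268, 205, 177, 208 and 185 TPM of Apod, against 22.4 to 40.8 TPM in Con and 18.6 to 24.0 TPM in NCAC. By 8 weeks the lowest, median and highest CAC libraries of Apod were at 167, 736 and 1469 TPM, and replicate 3, the lowest, fell below the highest NCAC library of 215 TPM. The Apod differences from Con were 0.44 ± 0.38, 1.82 ± 0.38, 2.67 ± 0.38 and 2.38 ± 0.35 (SE) on the log2 scale. Together Hp and Apod made up 86.9% to 92.1% of the summed TPM of the 10 genes in the CAC libraries at 6 weeks.

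**Figure D2:**
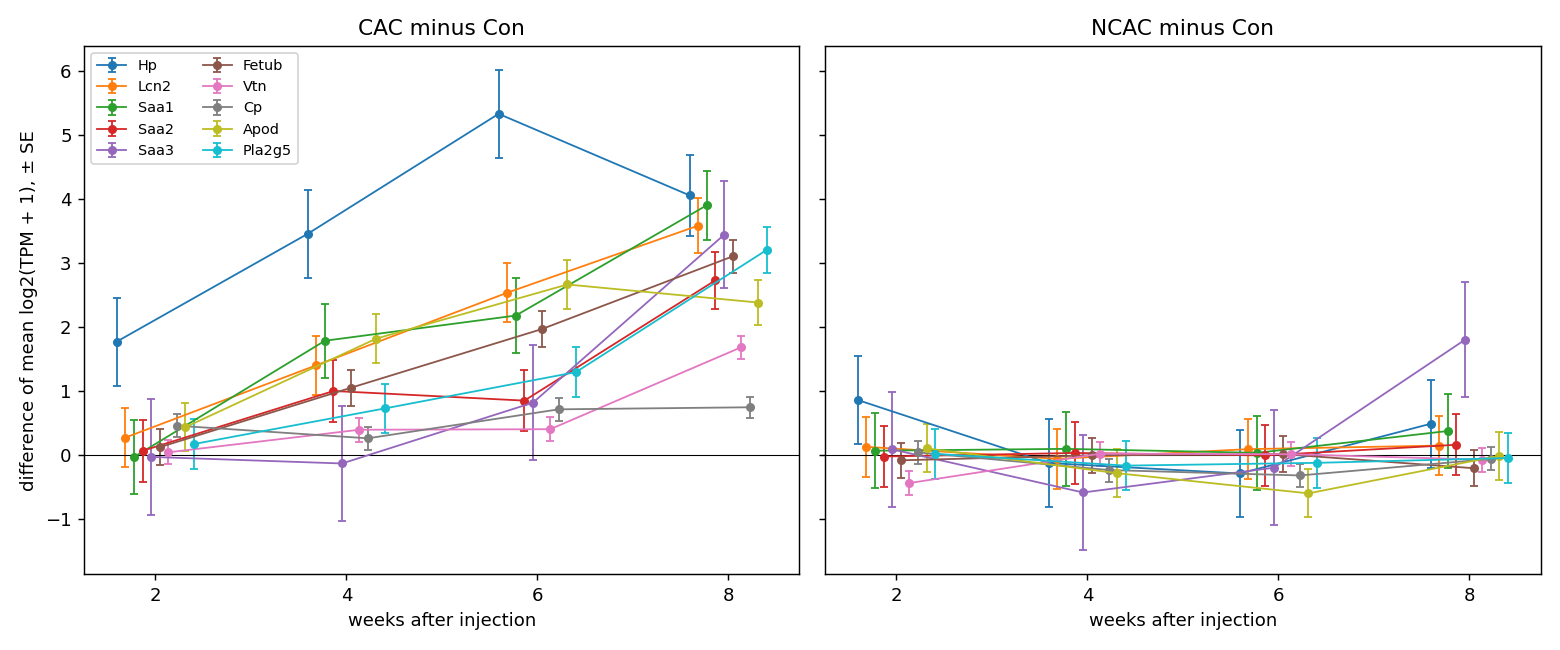
Difference of mean log2(TPM + 1) from Con by week (points, with bars of 1 SE) for CAC on the left and NCAC on the right, each gene in its own colour. In CAC the Hp difference goes from 1.77 at 2 weeks to 5.33 at 6 weeks, while in NCAC the differences lie between -0.60 and 1.80.

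Lipocalin 2 was low in muscle without a cachectic tumour. At 2 weeks Lcn2 lay at 0.296 to 1.64 TPM in CAC and 0.331 to 0.425 TPM in Con, which overlapped. At 4 weeks the CAC libraries held 1.25, 12.8, 1.24, 7.51 and 0.442 TPM of Lcn2, against at most 0.590 TPM in Con and NCAC. Replicates 2 and 4 were high, and replicate 5 overlapped the controls. At 6 weeks Lcn2 stood at 18.9, 7.10, 5.91, 8.10 and 4.15 TPM in CAC, against at most 0.75 TPM in Con and 0.358 to 1.97 TPM in NCAC, without overlap. Lcn2 at 8 weeks had its lowest, median and highest CAC libraries at 2.80, 36.9 and 114 TPM, against 0.737 to 2.77 TPM in Con and 0.753 to 3.66 TPM in NCAC. Only replicate 3 of CAC fell within the range of the other groups. The Lcn2 differences from Con were 0.27, 1.40 and 2.54 (each ± 0.46 SE) and then 3.59 ± 0.43 (SE) on the log2 scale.

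Fetuin B followed a similar course at a lower level. Fetub stood at 0.761, 3.07, 1.11, 2.44 and 0.448 TPM in CAC at 4 weeks, against at most 0.214 TPM in Con and NCAC. At 6 weeks the CAC libraries were close together, at 4.18, 3.53, 3.95, 3.00 and 3.02 TPM, against at most 0.308 TPM in the other groups. At 8 weeks they ran from 2.69 through a median of 14.8 to 34.9 TPM, against at most 1.02 TPM. Fetub was without overlap at all 3 weeks, and its differences from Con were 1.05 ± 0.28, 1.97 ± 0.28 and 3.11 ± 0.26 (SE) on the log2 scale.

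Pla2g5, whose enzyme releases fatty acids from phospholipids, was at most 2.17 TPM in Con. At 6 weeks it stood at 3.49, 1.85, 1.51, 2.55 and 2.21 TPM in CAC, against 0.124 to 0.490 TPM in Con and 0.0702 to 0.488 TPM in NCAC, without overlap. In CAC at 8 weeks the lowest, median and highest libraries of Pla2g5 were at 1.82, 28.1 and 49.8 TPM, against 0.854 to 2.17 TPM in Con and 0.430 to 3.66 TPM in NCAC. Replicate 3 was again the CAC library within the range of the others. The Pla2g5 differences from Con were 0.73 ± 0.39, 1.30 ± 0.39 and 3.21 ± 0.36 (SE) at 4, 6 and 8 weeks.

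The serum amyloid genes differed from one another. Saa1 was at 1.03, 7.60, 10.8, 4.14 and 0.416 TPM in CAC at 4 weeks, against 0.167 to 0.510 TPM in Con and 0 to 0.515 TPM in NCAC. Replicate 3 was highest here, although it was not among the highest for Hp, Lcn2 or Apod. At 6 weeks Saa1 stood at 14.7 TPM in CAC replicate 1 and at 2.84 to 3.38 TPM in the other 4, against at most 0.351 TPM in Con and NCAC. In CAC at 8 weeks its lowest, median and highest libraries were at 0.950, 43.9 and 368 TPM, against 0.619 to 2.81 TPM in Con and 0.757 to 3.40 TPM in NCAC. Of the 7 CAC libraries 6 lay above all others, and replicate 3 lay inside their range. The Saa1 differences from Con were 1.79 ± 0.58, 2.18 ± 0.58 and 3.91 ± 0.54 (SE) at 4, 6 and 8 weeks, and the last was 4.61 without CAC replicate 3.

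Saa2 was listed at 0 in 18 of the 62 libraries. In CAC at 4 weeks it stood at 0, 0.990, 7.85, 1.35 and 0 TPM, with replicate 3 again highest. At 6 weeks the CAC libraries held 0.265 to 1.75 TPM of Saa2, just above the highest of the others at 0.248 TPM. At 8 weeks they ran from 0.172 through a median of 6.66 to 100.5 TPM, against at most 0.883 TPM. The Saa2 differences from Con were 1.00 ± 0.48, 0.85 ± 0.48 and 2.73 ± 0.44 (SE) at 4, 6 and 8 weeks, and the last was 2.12 without CAC replicate 6, the highest library.

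Saa3 was low until 8 weeks and was also high in single libraries of other groups. It was listed at 0 in 21 libraries and reached 1.24 TPM at most in CAC at 4 weeks, where 1 Con library (replicate 3) held 7.29 TPM. At 6 weeks CAC replicate 1 held 4.13 TPM and the other 4 held 0.508 to 1.02 TPM, against at most 0.982 TPM in the other groups. At 8 weeks Saa3 stood at 27.0, 11.0, 3.85, 79.7, 9.99, 499 and 16.6 TPM in CAC, 0.702 to 4.24 TPM in Con, and 0.592, 0.865, 1068, 0.499 and 10.9 TPM in NCAC. The single highest Saa3 value of the series was therefore in an NCAC library, replicate 3, in which Saa1 was at 2.67 TPM and Saa2 at 0.431 TPM. The Saa3 difference at 8 weeks was 3.44 ± 0.84 (SE) from Con, 2.75 without CAC replicate 6. From NCAC it was 1.64 ± 0.84 (SE), and 3.36 without NCAC replicate 3.

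The shares within the family varied between libraries. Saa1 made up 73.0% to 92.7% of the sum of Saa1 and Saa2 in CAC at 6 weeks and 78.6% to 90.6% at 8 weeks. Saa3 made up 12.2% to 21.0% of the sum of the 3 genes in CAC at 6 weeks and 20.3% to 77.4% at 8 weeks. The lowest of the 7 shares of Saa3 at 8 weeks was close to the highest of the 5 at 6 weeks, and the ranges overlapped.

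**Figure D3:**
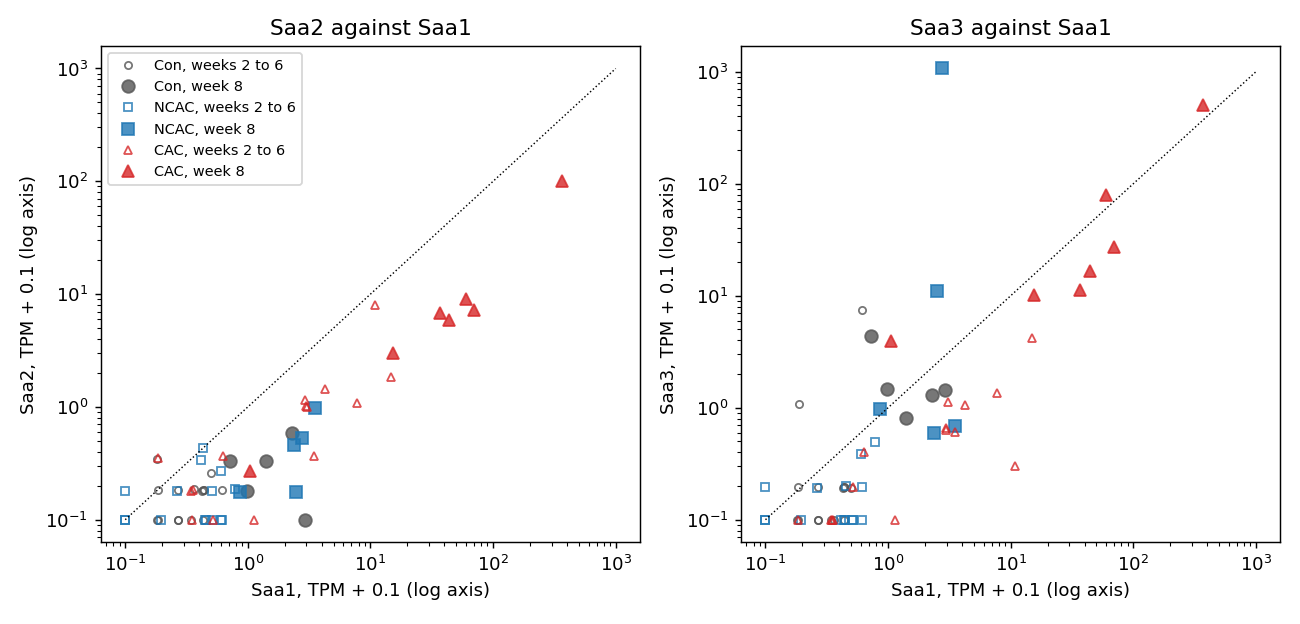
Saa2 (left) and Saa3 (right) against Saa1 in each library, in TPM + 0.1 on log axes, with filled symbols for week 8, open symbols for earlier weeks and a dotted line of equal levels. In the right panel 1 NCAC library lies at 1068 TPM of Saa3 with 2.67 TPM of Saa1, while the CAC library highest in Saa1 (368 TPM) holds 499 TPM of Saa3.

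Vitronectin and ceruloplasmin had a substantial level in every group and differed less. Vtn stood at 21.4 to 28.0 TPM in CAC and 15.8 to 21.7 TPM in Con at 6 weeks, which overlapped slightly. At 8 weeks it was at 64.1, 83.1, 29.5, 94.8, 64.9, 66.2 and 109 TPM in CAC, against 16.4 to 24.2 TPM in Con and 15.0 to 29.5 TPM in NCAC. The other CAC libraries stood clear, and replicate 3 (29.48 TPM) lay level with the highest NCAC library (29.46 TPM). The Vtn differences from Con were 0.04, 0.40 and 0.41 (each ± 0.19 SE) at 2, 4 and 6 weeks and 1.69 ± 0.18 (SE) at 8 weeks.

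Cp stood at 28.4, 30.6, 21.8, 34.4 and 21.0 TPM in CAC at 6 weeks, against 12.8 to 19.3 TPM in Con and 9.87 to 15.1 TPM in NCAC, without overlap. At 8 weeks the CAC libraries ran from 21.6 through a median of 29.6 to 40.0 TPM, against 15.6 to 19.6 TPM in Con. One NCAC library, replicate 1, reached 27.1 TPM and overlapped them. The Cp differences from Con were 0.46, 0.26 and 0.72 (each ± 0.18 SE) and then 0.75 ± 0.17 (SE), the smallest of the 10 genes at 8 weeks.

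In counts, 0, 2, 7 and 10 of the 10 genes passed in CAC against Con at 2, 4, 6 and 8 weeks, where 0.00739%, 0.621%, 24.2% and 31.1% of all tested genes passed. Against NCAC 0, 3, 7 and 9 passed, beside 0.0517%, 1.48%, 27.8% and 43.1% of all genes. A fit of week 8 alone passed 9 of 10 against Con and 9 of 10 against NCAC, beside 10.6% and 21.9% of all genes, and Saa3 was the gene missing from both. The CAC libraries lay above every Con and NCAC library of their week for 0, 2, 8 and 3 of the 10 genes, beside 0.54%, 2.07%, 8.4% and 2.2% of all tested genes. Median-of-ratios rescaling, which lowered the median gene by 0.15 on the log2 scale in CAC against Con at 6 weeks, left 2, 7 and 10 of the 10 genes at 4, 6 and 8 weeks. Over all genes it turned 79 rises and 5 falls at 4 weeks into 76 and 10. It turned 2941 and 328 into 926 and 879 at 6 weeks, and 2185 and 2021 into 2240 and 2506 at 8 weeks. Against NCAC it turned 190 rises and 10 falls into 100 and 36 at 4 weeks, 3328 and 432 into 1293 and 1307 at 6 weeks, and 4793 and 1044 into 2325 and 2354 at 8 weeks. Because these contrasts chose the genes, nothing is read from the counts.

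The 4-week counts moved with single libraries. In CAC at 4 weeks replicate 2 was highest for 7 of the 10 genes, replicates 2 and 4 were in the top 2 for 9 and 8 genes, and replicate 5 was lowest for 8. Without replicate 2 the genes passing against Con numbered 1 (beside 0.222% of all genes), without replicate 4 they numbered 0 (0.200%), and without replicate 5 they numbered 5 (1.47%), and 6 against NCAC (4.20%). A fit of CAC and Con at 4 weeks alone passed 0 (0.155% of all genes), and a fit without week 8 passed 6 (3.41%). At 8 weeks replicate 3 was lowest for 9 of 10 genes and replicate 6 highest for 5. Leaving out any 1 library kept the count against Con at 10, from which nothing is read since this contrast chose the genes.

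**Figure D4:**
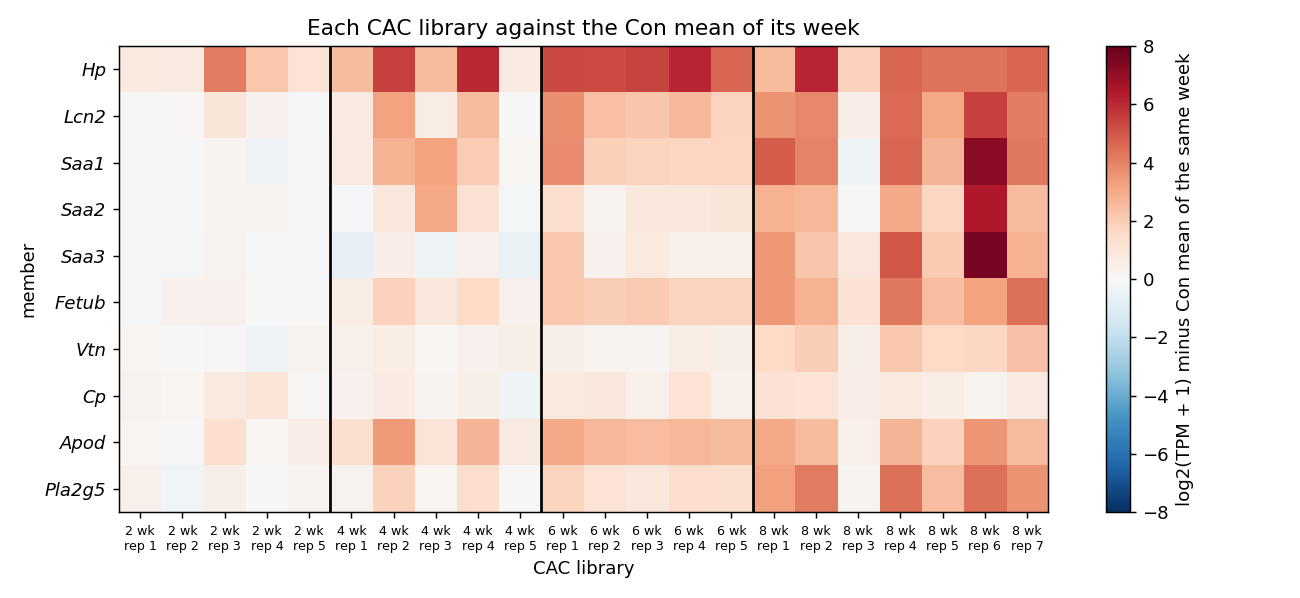
Each CAC library (columns, grouped by week) against the Con mean of its week for each gene (rows), as a difference of log2(TPM + 1) shown by colour. At 4 weeks replicates 2 and 4 are red in most rows and replicate 5 is near white, replicate 3 stands out in Saa1 and Saa2, and at 8 weeks replicate 3 is paler than the other 6 libraries.

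Because liver makes much of the plasma haptoglobin, Saa1, Saa2, fetuin B and vitronectin, transcripts of liver proteins were examined beside the set. The 14 hepatocyte markers summed to 62.4 to 239 TPM in CAC and 32.8 to 72.1 TPM in Con at 6 weeks, and to 385 to 2367 TPM in CAC and 72.0 to 684 TPM in Con at 8 weeks. Most of the sum was Cyp2e1, at 235 TPM on average over all libraries, an enzyme that fat also expresses. Apob, Ttr, Cps1 and Ambp were listed at 0 in 44, 35, 42 and 38 of the 62 libraries. Albumin (Alb) had a median of 0.575 TPM over all libraries and exceeded 10 TPM in 4 of them, with 93.5 TPM in CAC replicate 6 at 8 weeks, 45.1 and 17.3 TPM in CAC replicates 3 and 2 at 4 weeks, and 10.5 TPM in Con replicate 2 at 8 weeks. The first of these libraries also had the most Apoa1 (31.7 TPM) and Ahsg (18.8 TPM), and was the highest for Saa1, Saa2 and Saa3 among CAC libraries. CAC replicate 3 at 4 weeks, with the most Ttr (5.32 TPM), was the highest of its group for Saa1 and Saa2. Con replicate 2 at 4 weeks held 7.32 TPM of Alb, 2.09 TPM of Apoa1 and 1.82 TPM of Ahsg. In that library Hp was at 5.18 TPM and Saa1 at 0.167 TPM. By group, the median of Alb was 3.05, 3.48 and 3.26 TPM in Con, NCAC and CAC at 8 weeks. At earlier weeks it was 0.209 to 0.644 TPM.

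Without the 4 libraries above 10 TPM of Alb, an alternative chosen after seeing the data, the genes passing at 4 weeks numbered 0 against Con and 1 (Apod) against NCAC, beside 0.237% and 0.266% of all genes. The 4-week difference from Con was 0.97 in place of 1.79 for Saa1, 0.34 in place of 1.00 for Saa2 and 3.09 in place of 3.46 for Hp. At 8 weeks the same omission gave 10 passing genes against Con, with a difference of 3.51 for Saa1, 2.06 for Saa2, 2.72 for Saa3 and 4.22 for Hp. In CAC at 6 weeks Alb was at 0.0480 to 0.295 TPM in all 5 libraries, in which Hp was at 264 to 724 TPM. The part of liver transcripts in the values of any week was not tested.

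Markers of some other cells were also higher in CAC at 6 weeks. The 14 neutrophil markers summed to 14.8 to 31.2 TPM in CAC and 5.31 to 14.6 TPM in Con at 6 weeks, without overlap, and to 28.6 to 117 TPM and 29.6 to 75.7 TPM at 8 weeks. All 5 neutrophil markers that were tested rose at 6 weeks, and S100a9 had medians of 13.4 TPM in CAC and 4.59 TPM in Con. S100a8, S100a9 and Csf3r were at 0 in no library, while Ly6g, Mpo, Camp and Ngp were listed at 0 in 40, 45, 39 and 37 of 62. The sums of 3 further lists did not overlap between CAC and Con at 6 weeks. In NCAC the endothelial sum reached 346 TPM, inside the CAC range, while the macrophage and satellite cell sums stayed below those of CAC. Macrophage markers summed to 230 to 301 TPM in CAC and 138 to 173 TPM in Con (5 of 13 rose), endothelial markers to 340 to 411 TPM and 281 to 304 TPM (7 of 12 rose and 1 fell), and satellite cell markers to 135 to 212 TPM and 99.6 to 124 TPM (2 of 8 rose). Of all tested genes 24.2% passed at 6 weeks, and the satellite cell count was near that share. The sums of adipocyte, fibro-adipogenic progenitor, Schwann cell, slow fibre and melanocyte or melanoma markers overlapped between CAC and Con at that week. The melanocyte and melanoma list summed to 8.42 to 27.3 TPM in CAC and 8.18 to 10.4 TPM in Con at 8 weeks. The part of these cells in the results was not tested.

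NCAC against Con was not the contrast that chose the genes, although libraries of both groups served as its controls. Saa2 and Fetub had 0 and 1 library at 1 TPM outside CAC, so little could be seen for them. Of the other 8 genes, 0 passed in NCAC against Con at 2, 4, 6 or 8 weeks by limma. Over all tested genes 0.00739%, 0% (0 genes), 0% (0 genes) and 1.29% passed in the same order, and 547, 55, 130 and 3680 genes had an unadjusted p under 0.05. A fit of week 8 alone also passed 0 of 8, and 0% of all genes, with 1205 at an unadjusted p under 0.05. At 8 weeks 9 rises and 166 falls over all genes became 56 and 10 after rescaling. For Hp the 8-week difference was 0.49 with a 95% confidence interval of -0.88 to 1.87, and at 6 weeks it was -0.29 (-1.66 to 1.09). For Lcn2 at 8 weeks it was 0.15 (-0.78 to 1.08) and for Apod -0.01 (-0.76 to 0.74). Vtn at 2 weeks had an interval clear of 0, at -0.44 (-0.82 to -0.06), with an adjusted p of 1 by limma. Saa3 at 8 weeks had the widest, at 1.80 (-0.005 to 3.61), with replicate 3 of NCAC as its highest library. These intervals leave room for differences of over 1 log2 unit in several of the genes, so a lack of effect is not shown.

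Some of the genes were higher at 8 than at 6 weeks without a cachectic tumour. In Con, Hp rose from 5.15 to 13.3 TPM at 6 weeks to 41.0 to 173 TPM at 8 weeks, without overlap, by 3.25 ± 0.69 (SE, adjusted p = 5.56e-05 by limma). Apod in Con rose from 22.4 to 40.8 TPM to 89.1 to 163 TPM, by 1.93 ± 0.38 (SE, adjusted p = 1.55e-05). Pla2g5 in Con rose by 0.88 ± 0.39 (SE, adjusted p = 0.0471), a call lost under median-of-ratios rescaling (adjusted p = 0.103) and without 8 of the 10 libraries in turn. These 3 of the 8 genes passed, where 60.0% of all tested genes did. The other 5 had differences of 0.12 (Cp) to 1.13 (Saa3) and did not pass in the main fit. Vtn and Cp went to -0.19 and -0.25 after rescaling. Lcn2, Saa1 and Saa3 did pass when only the Con libraries of both weeks were fitted (adjusted p = 0.00448, 0.00122 and 0.00558 by limma). They also passed with a pseudocount of 0.1 (adjusted p = 0.0333, 0.00428 and 0.0203 by limma). Saa1 in Con stood at 0.0802 to 0.338 TPM at 6 weeks and 0.619 to 2.81 TPM at 8 weeks, without overlap. The calls for Lcn2, Saa1 and Saa3 thus depended on the setting. Saa2 and Fetub were too low in these groups to be read.

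In NCAC 5 of the 8 genes passed at 8 against 6 weeks, where 59.1% of all genes did. Hp rose by 4.03 ± 0.69 and Apod by 2.52 ± 0.38 (SE, adjusted p = 1.77e-06 and 1.25e-07 by limma). Saa3 rose by 3.13 ± 0.90 (SE, adjusted p = 0.00256), but by 1.40 without replicate 3 of week 8, where the adjusted p was 0.0579. Saa1 rose by 1.41 ± 0.58 and Pla2g5 by 0.95 ± 0.39 (SE, adjusted p = 0.0339 and 0.0316), and the number passing was 3 without NCAC replicate 1 of week 6 or replicate 1, 3 or 4 of week 8. The rescaling lowered the median gene by 0.32 in Con and 0.18 in NCAC on the log2 scale, and turned 7073 rises and 1045 falls over all genes into 4219 and 4137 in Con and 5586 and 2416 into 4388 and 4466 in NCAC. Markers of several cell types also differed with time in Con. The macrophage sum was 138 to 173 TPM at 6 weeks and 1155 to 2248 TPM at 8. Fibro-adipogenic progenitor markers summed to 1282 to 1606 TPM and 6080 to 13086 TPM, and neutrophil markers to 5.31 to 14.6 TPM and 29.6 to 75.7 TPM. Schwann cell and endothelial sums were also higher at 8 weeks without overlap. The adipocyte sums overlapped, at 5752 to 9444 TPM and 7449 to 22392 TPM, as did those of hepatocyte, satellite cell, slow fibre and melanocyte or melanoma markers. The part of these cells in these rises was not tested. The later sampling cannot be told apart from whatever else set the week 8 libraries apart.

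**Figure D5:**
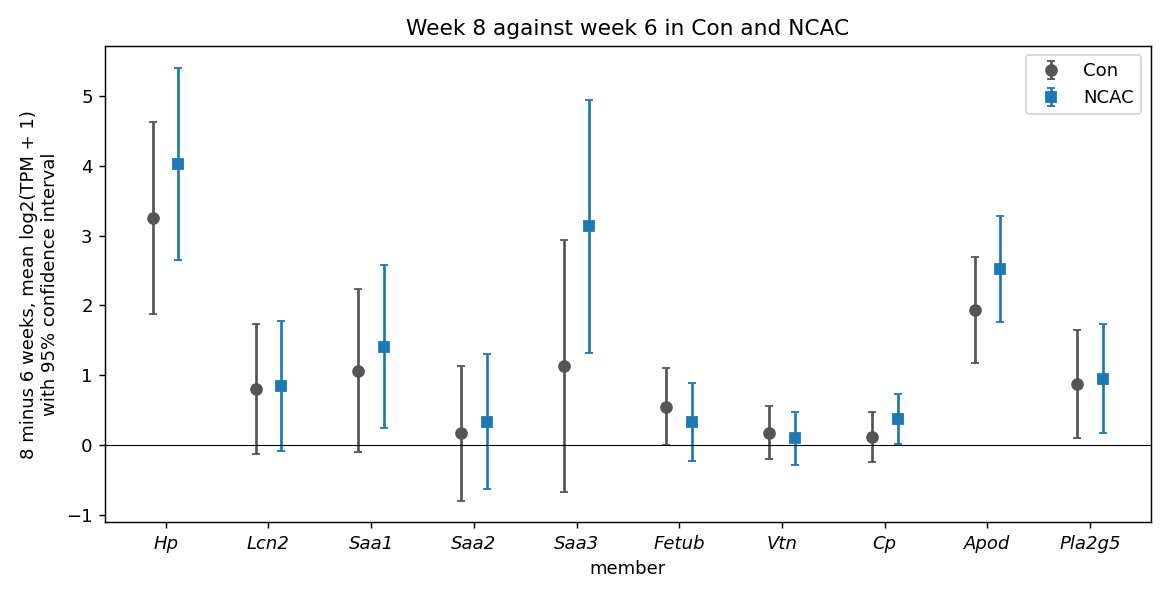
Difference of mean log2(TPM + 1) between 8 and 6 weeks for each gene in Con (circles) and NCAC (squares), with 95% confidence intervals. The Hp and Apod intervals lie above 0 in both groups, while those of Saa2, Fetub, Vtn and Lcn2 include 0 in both.

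Other acute phase proteins, from a list of 31 genes of which 30 were in the table and 21 were tested, were counted next. In CAC against Con 0, 7, 13 and 14 of the 21 rose at 2, 4, 6 and 8 weeks and none fell, with medians of 0.22, 0.63, 1.26 and 1.04 on the log2 scale beside 0.06, 0.06, 0.16 and 0.00 over all tested genes. Of all tested genes 0.00739%, 0.621%, 24.2% and 31.1% passed against Con at these weeks. Against NCAC 0, 9, 13 and 14 rose and 1 fell at 6 weeks, beside 0.0517%, 1.48%, 27.8% and 43.1% of all genes. A fit of week 8 alone called 10 of 21 against Con and 11 against NCAC, beside 10.6% and 21.9% of all genes. Rescaling left 11 rises at 6 weeks against Con, beside 926 rises and 879 falls over all genes. At 8 weeks it left 14 rises and 1 fall, beside 2240 rises and 2506 falls over all genes. The 4-week counts against Con and NCAC were each 1 when CAC replicate 2, CAC replicate 4 or the libraries above 10 TPM of Alb were left out. The shares of all genes then lay between 0.200% and 0.310%. The counts were 4 against Con without Con replicate 1, 4 or 5 (0.399% of all genes each). Against NCAC they were 4 without NCAC replicate 1, 2 or 3 (0.658% to 0.798%) and 5 without NCAC replicate 5 (0.754%). Serpina3n, a serine protease inhibitor, stood at 282 ± 155 TPM (SD, n = 5) in CAC and 8.40 ± 3.46 TPM (SD, n = 5) in Con at 6 weeks, a log2 difference of 4.82 ± 0.58 (SE, adjusted p = 2.82e-08 by limma). Serpina3m of the same family differed by 3.89 at 8 weeks (adjusted p = 1.48e-11, and 2.77e-04 in week 8 alone). Itih3 and Itih4, which encode inter-alpha-trypsin inhibitor heavy chains, differed by 2.06 and 2.31 (adjusted p = 0.00341 and 0.00276 in week 8 alone). Of the negative acute phase proteins, which fall in plasma, 5 of 7 were tested and none fell. Trf, for transferrin, rose at 6 weeks by 1.51 (adjusted p = 0.00836 by limma). Ahsg at 8 weeks differed by 1.06 (adjusted p = 0.0276, but 0.177 in week 8 alone), and its highest value, 18.8 TPM, was in CAC replicate 6, the library with the most Alb.

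Genes that induce the acute phase were the next list. Of 24 listed inducers 20 were tested, and 1, 7, 11 and 13 rose in CAC against Con at 2, 4, 6 and 8 weeks, with none falling (10 rose in a fit of week 8 alone, and rescaling gave 10 rises and 1 fall at 6 weeks). The shares of all tested genes were 0.00739%, 0.621%, 24.2% and 31.1%, and 10.6% in week 8 alone. After rescaling 926 of all genes rose and 879 fell at 6 weeks. Stat3, the transcription factor of the interleukin 6 family, was the 1 at 2 weeks, with a difference of 0.72 ± 0.13 (SE, adjusted p = 0.0175 by limma), which did not pass in a fit without week 8 (adjusted p = 0.0563). At 6 weeks Stat3 stood at 57.8 ± 6.31 TPM (SD, n = 5) in CAC and 20.9 ± 1.81 TPM (SD, n = 5) in Con. Socs3, its feedback inhibitor, stood at 29.0 ± 8.99 TPM in CAC and 2.84 ± 0.69 TPM in Con (SD, n = 5) at that week. Osmr, the oncostatin M receptor, rose by 1.81 at 6 weeks (adjusted p = 9.36e-10), and Bcl3, a partner of NF-kB, by 1.67 (adjusted p = 5.19e-08). Cebpd, a C/EBP factor, rose by 1.86 at 6 weeks and 2.50 at 8 weeks (adjusted p = 0.0130 and 1.84e-04, the second 0.00919 in week 8 alone).

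Of 17 tested receptors and partners of the 10 proteins, 0, 1, 6 and 5 rose at 2, 4, 6 and 8 weeks against Con, and 5 fell at 8 weeks, where the median was -0.08. Over all genes 24.2% passed at 6 weeks, and 2185 rose and 2021 fell at 8 weeks. A fit of week 8 alone called 1 rise and no fall, beside 10.6% of all genes. Rescaling left 1 rise and 1 fall at 6 weeks, beside 926 rises and 879 falls over all genes. Scarb1, a lipoprotein receptor that also binds serum amyloid A, rose by 1.44 at 6 weeks and 1.23 at 8 weeks (adjusted p = 1.35e-06 and 1.46e-06 by limma, the second 0.00312 in week 8 alone). Cd163, the haptoglobin-haemoglobin receptor of macrophages, differed by 1.16 and 1.09 (adjusted p = 0.0234 and 0.0149), the first with an adjusted p of 0.0562 after rescaling and the second with 0.126 in week 8 alone. Mmp9, a protease that lipocalin 2 binds, differed by -1.12 at 8 weeks (adjusted p = 9.46e-05, but 0.0656 in week 8 alone), and Slc22a17, a lipocalin 2 receptor, by -0.60 (adjusted p = 0.00116, but 0.0781 in week 8 alone). Bsg, a membrane glycoprotein reported to bind Apod, rose by 0.30 at 6 weeks (adjusted p = 0.00177), and by 0.12 after rescaling (adjusted p = 0.437).

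Of 13 tested genes of iron handling, the process in which ceruloplasmin, lipocalin 2 and haptoglobin take part, 4 rose at 6 weeks, and 1 rose and 2 fell at 8 weeks, near the 24.2% and 31.1% of all genes. Slc39a14, a metal importer, stood at 48.0 ± 27.8 TPM in the 5 CAC libraries and 4.95 ± 0.77 TPM in the 5 Con libraries of week 6 (SD). Its difference was 2.91 at 6 weeks and 2.92 at 8 weeks (adjusted p = 2.75e-06 and 1.32e-07 by limma, the second 0.00147 in week 8 alone). Tfrc, the transferrin receptor, differed by -1.43 and Slc40a1, the iron exporter ferroportin, by -0.52 at 8 weeks (adjusted p = 0.00492 and 0.0191, but 0.0530 and 0.105 in week 8 alone). A fit of week 8 alone called 1 rise and no fall, beside 10.6% of all genes. Rescaling left 2 rises at 6 weeks, beside 926 rises and 879 falls over all genes.

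Among 17 tested genes of phospholipase A2 and eicosanoid synthesis, the setting of Pla2g5, 3 rose and 1 fell at 6 weeks, and 1 rose and 5 fell at 8 weeks against Con, again near the 24.2% and 31.1% of all genes. Pla2g2e, another secreted phospholipase A2, differed by 0.49 at 8 weeks, Pla2g2d by -0.91 and Pla2g12b by -0.52 (adjusted p = 5.70e-04, 0.00351 and 0.00656 by limma, but 0.0624, 0.122 and 0.110 in week 8 alone). Ltc4s, leukotriene C4 synthase, rose by 1.03 at 6 weeks (adjusted p = 0.00522). A fit of week 8 alone called no gene of this list in either direction, beside 10.6% of all genes. Rescaling left 1 rise and 1 fall at 6 weeks, beside 926 rises and 879 falls over all genes.

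Genes with the most similar course over the 12 group means were found by the root mean square difference of profiles centred on their own mean log2(TPM + 1). Serpina3m was nearest to Lcn2 (0.116) and to Saa1 (0.273), and Serpina3n to Hp (0.507). Apod was nearest to Cxcl14 (0.233), Lrg1 (0.266) and Lbp (0.273), of which the last 2 encode acute phase proteins. Pla2g5 was nearest to Serpina3k (0.298), Fetub to Serpina3e-ps (0.228) and Saa2 to Kng2 (0.169). Saa3 was nearest to Arxes2 (0.496), Vtn to Cyp7b1 (0.152) and Cp to Plscr2 (0.107). Between members the nearest were Lcn2 and Saa1 (0.265) and Lcn2 and Fetub (0.288), and the farthest were Hp and Cp (2.08). Small profiles such as those of Cp and Vtn give small differences to many genes. The CAC groups whose high values chose the 10 genes are part of these profiles, so likeness between members was partly set in advance. Genes mostly under 1 TPM outside CAC, such as Saa2 and Fetub, are nearly flat there on this scale. Nothing is read from the likeness between members.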

How the data were processed

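RNA was sequenced from soleus of 62 mice with stranded mRNA libraries, per the labels' protocols. The authors deposited TPM per gene. Build mm10 is listed in the submitters' processing notes, and the aligner was not given in the sources used here. Since TPM keeps no depth, precision is given by replicates alone. Genes with at least 1 TPM in at least 5 libraries (13529 of 47643) were fitted as log2(TPM + 1) with limma 3.58.1 in R 4.3.3, with 12 group means, 1 spread per gene and an intensity trend, and Benjamini-Hochberg adjustment within each of 14 comparisons. In a test on simulated data the fit of all groups made more false calls at 8 weeks than a fit of week 8 alone, which is therefore given beside it. The 10 genes and all lists were chosen with earlier results of these data known. Named genes were the 10, up to 4 genes per list with the smallest adjusted p in CAC against Con, receptors or regulators a sentence needed, leading markers, and nearest profiles. Alternatives were a pseudocount of 0.1, no filter, median-of-ratios rescaling, the compared groups alone, fits without week 8 and of it alone, the replicate number as a block, each library left out, and, chosen after seeing the data, leaving out libraries above 10 TPM of Alb. Promoters were aligned with Biopython 1.88, and figures drawn with matplotlib 3.10.9.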

Additional observations from a re-analysis of the deposited data

Results flagged for a closer look

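In 13 of 120 groups of 1 gene and 1 group of libraries, 1 library lay far from the others by Dixon's gap test. Chance flags about 1 in 20 groups where values are normally distributed. Groups here often held values at or near 0, and a sole library above 0 is always flagged, so the 13 cannot be set against that rate. Saa3 accounts for 6 of the 13. It was at 7.286 TPM in Con replicate 3 at 4 weeks (others at most 0.0955), 4.132 TPM in CAC replicate 1 at 6 weeks (others at most 1.02) and 0.9818 TPM in Con replicate 1 at 6 weeks (others at most 0.0950). It was at 0.3032 TPM in CAC replicate 3 at 2 weeks and 0.1004 TPM in NCAC replicate 3 at 6 weeks, with the others listed at 0, and at 0 in Con replicate 5 at 2 weeks, with the others at 0.0920 to 0.0956.

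Saa1 was at 14.74 TPM in CAC replicate 1 at 6 weeks (others 2.84 to 3.38), the same library as for Saa3, and low at 0.08402 TPM in Con replicate 5 at 2 weeks (others 0.326 to 0.402). Saa2 was at 0.3315 TPM in NCAC replicate 2 at 4 weeks (others at most 0.0807). Lcn2 was at 0.973 TPM in NCAC replicate 2 at 2 weeks (others at most 0.469) and 1.969 TPM in NCAC replicate 1 at 6 weeks (others at most 0.421). Vtn was low at 29.48 TPM in CAC replicate 3 at 8 weeks (others 64.1 to 109), and Cp high at 27.11 TPM in NCAC replicate 1 at 8 weeks (others at most 16.4).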

How the results depend on the processing

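Of 380 recomputed counts 346 stayed within 1.5 times, and counts of 0 in both fits were taken as unchanged. Comparisons at 0 in the main fit, such as those at 2 weeks, had little room to move, so the 346 says little about the others. Those that moved concern 4 weeks or week 8 against week 6. A pseudocount of 0.1 gave 4 of the 10 genes in CAC against Con and 5 against NCAC at 4 weeks (0.850% and 1.86% of all genes), and 7 for Con at 8 against 6 weeks. The compared groups alone gave 0 of the 10 genes and 0 of the other acute phase proteins in both 4-week comparisons (0.155% and 0.200% of all genes), and 7 genes for Con. Fetub, which was too low in Con to be read, was among the 7 for Con under both settings. The shares of all genes for Con under these settings are not given. Without week 8 the 4-week counts of the 10 genes were 6 and 7, beside 3.41% and 9.44% of all genes in place of 0.621% and 1.48%. With no filter 5 of the other proteins passed against NCAC at 4 weeks, beside 0.556% of all genes. Leaving out the libraries above 10 TPM of Alb gave 0 and 1 of the 10 genes, and 1 and 1 of the other proteins, against Con and NCAC at 4 weeks (0.237% and 0.266% of all genes). Leaving out 1 library gave, at 4 weeks, 0 to 5 and 2 to 6 of the 10 genes and 1 to 10 and 1 to 11 of the other proteins, and 3 to 6 for NCAC at 8 against 6 weeks. The 4-week shares of all genes ran from 0.200% to 1.47% against Con and from 0.296% to 4.20% against NCAC. Of 2400 recomputed single values 69 changed sign, and 0 of these passed in either fit; Saa3 in CAC against Con at 4 weeks went from -0.13 to 0.51 with a pseudocount of 0.1 and to 0.47 without Con replicate 3. The causes were not tested.

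Same-numbered libraries were not paired by the labels. Their deviations did not correlate in every pair (lowest -0.666, in NCAC against Con at 8 weeks). In CAC against NCAC at 4 weeks all were positive (lowest 0.047, mean 0.153, against a mean of -0.039 for other numbers). There 4 of 5 NCAC libraries correlated best with the CAC library of their own number. With the replicate number as a block, the 10 genes gave 3 calls against Con and 3 against NCAC at 4 weeks and 6 for NCAC at 8 against 6 weeks, and the other proteins 8 and 10 at 4 weeks. Beside these, 0.658% and 1.92% of all genes passed at 4 weeks, and 8221 of 13529 genes for NCAC at 8 against 6 weeks. Over all genes the block moved NCAC against Con at 8 weeks from 175 to 1102 calls. Read depth is unknown, so levels under about 1 TPM carry an error that these files do not show.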
